A study of Homo sapiens with 16 samples.

Results

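A set of 9 genes in which inherited variants cause or have been linked to Parkinson's disease or parkinsonism were followed through 4 groups of SH-SY5Y cultures. They are PINK1, PARK7, LRRK2, VPS35, ATP13A2, FBXO7, UCHL1, SYNJ1 and DNAJC6. They were picked by gene symbol, without the synuclein genes, and all 9 were found among the 19898 genes of the table. SH-SY5Y is a human neuroblastoma line of the sympathetic lineage that takes on neuron-like features when differentiated. The cells, called dopamine-like neurons in the labels, had been differentiated for 15 days either in a 3D silk-collagen scaffold or on flat 2D dishes. The 4 groups were MPP 3D, untreated 3D, MPP 2D and untreated 2D, with 4 libraries each, and no genetic change was named for any of them. MPP stands for 1-methyl-4-phenylpyridinium, a toxin taken up by catecholamine neurons that blocks respiratory complex I, given at 1 mM for 48 h starting on day 13. The study's question was how far disease features depend on the surroundings in which such cells are grown. All libraries came from 1 line, so they hold no difference between people.

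The 9 genes work at a few connected places in the cell. PINK1 is a kinase that gathers on damaged mitochondria and starts their removal by mitophagy, PARK7 (DJ-1) guards against oxidative and glyoxal damage, and FBXO7 is the substrate-binding part of an SCF ubiquitin ligase that has been linked to the same mitochondrial pathway. LRRK2 is a large kinase that phosphorylates Rab GTPases on membranes. VPS35 is the core of the retromer, which returns cargo from endosomes, and ATP13A2 is a lysosomal P5-type ATPase that exports polyamines. UCHL1 is an abundant deubiquitinase of neurons. SYNJ1 (synaptojanin) is a phosphoinositide phosphatase and DNAJC6 (auxilin) a J-domain protein, and both act in taking the clathrin coat off newly formed synaptic vesicles.

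Values are normalised read counts, that is reads of a gene divided by 1 scaling factor per library, given as mean ± SD over n = 4 libraries or for replicates 1 to 4 in turn. Log2 changes are on the log2(normalised count + 1) scale with their standard error (SE), from limma, and a change was called at an adjusted p under 0.05 over 16984 tested genes. All 9 genes passed the filter on low values. Whole reads recovered from the values came to 36554574 to 38414859 per library in MPP 3D, 24589435 to 34658873 in untreated 3D, 30399672 to 41813620 in MPP 2D and 34643854 to 46359070 in untreated 2D. Mitochondrially encoded genes took 2.53 to 2.99% of the reads in MPP 3D, 3.83 to 7.97% in untreated 3D, 1.48 to 1.70% in MPP 2D and 9.03 to 13.6% in untreated 2D. Untreated 3D replicate 1 held the highest share of its group, and replicate 3 stood off from the other 3 libraries on the fourth principal component, which held 5.78% of the variance, at 56.4 against -29.6 to 4.32. Whether the 4 libraries of a group are separate cultures is not stated, so p-values reflect only the spread between these samples, which may be technical. The 2D cells were detached with an enzyme and pelleted before freezing and the 3D scaffolds were frozen whole, so culture and handling cannot be told apart.

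The label of dopamine-like neurons was checked against markers. Of 12 dopamine neuron markers, 6 were in the table. Summed, these 6 came to 12034 to 15173 in MPP 3D, 22017 to 24623 in untreated 3D, 3941 to 4265 in MPP 2D and 4002 to 4268 in untreated 2D. TH, the enzyme that makes L-DOPA, averaged 4241 in MPP 3D, 5585 in untreated 3D, 595 in MPP 2D and 341 in untreated 2D. DDC, which turns L-DOPA into dopamine, averaged 2851 in MPP 3D, 14143 in untreated 3D, 2301 in MPP 2D and 2745 in untreated 2D. The vesicular monoamine transporter SLC18A2 averaged 6007 in MPP 3D, 3129 in untreated 3D, 1153 in MPP 2D and 975 in untreated 2D. These genes of amine synthesis and storage are shared with noradrenergic cells, and the MPP 3D libraries overlapped the 2D libraries in DDC but not in TH or SLC18A2. NR4A2, a transcription factor of midbrain dopamine neurons, averaged 2.95 to 7.70 over the groups. All 9 noradrenergic markers were present, at summed values of 162971 to 210977 in MPP 3D, 209618 to 241697 in untreated 3D, 246765 to 263262 in MPP 2D and 264440.1 to 291532 in untreated 2D. Markers of microglia and macrophages, 6 of 7 in the table, summed to 1020.4 to 1732 in MPP 3D, 857 to 1293 in untreated 3D, 271 to 313 in MPP 2D and 136 to 207 in untreated 2D, with the leukocyte gene PTPRC at 0 to 7.04 in every library. CD68, a lysosomal protein abundant in macrophages, alone gave 953 to 1620 of these in MPP 3D, 762 to 1208 in untreated 3D, 241 to 261 in MPP 2D and 83.6 to 159 in untreated 2D. The 9 mesenchymal state markers summed to 10449 to 10718 in MPP 3D, 12816 to 13453 in untreated 3D, 16559 to 17683 in MPP 2D and 16180.3 to 16978 in untreated 2D. The 9 glia and Schwann cell markers summed to 735 to 1178 over all libraries, with SOX10 at 0 to 3.68. The part of these marker shifts in the culture differences below was not tested.

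The levels of the 9 genes spanned a wide range. Per kilobase of merged exon, the order in every group began with UCHL1, PARK7 and ATP13A2, whose libraries did not overlap with those of the next gene, and ended with LRRK2. Merged exons count every annotated exon of a gene, from 2282 bases in UCHL1 to 13491 in LRRK2. The order between genes therefore depends on this choice of length. By mean count without length, VPS35 had rank 1216 of 16984 tested genes, before PARK7 (rank 1434), FBXO7 (rank 1561) and ATP13A2 (rank 1670). Averages per kilobase in MPP 3D were 8841 normalised counts for UCHL1, 2102 for PARK7, 919 for ATP13A2 and 10.2 for LRRK2, and in untreated 2D they were 11781 for UCHL1, 2079 for PARK7, 839 for ATP13A2 and 19.2 for LRRK2. FBXO7, DNAJC6 and VPS35 lay between, at 467 to 671 per kilobase, with DNAJC6 overlapping at least 1 of the others in each group. SYNJ1 and PINK1 came next to last. SYNJ1 averaged above PINK1 per kilobase in both 3D groups, with overlapping libraries, and below it, without overlap, in both 2D groups. Which gene averages higher depends on the exon lengths used. Of the merged exons of PINK1, 39.4% are shared with a gene on the other strand, described below. LRRK2 was the least precisely measured, with 55 to 421 recovered reads per library, while each of the other 8 had at least 531 reads in every library.

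**Figure D1:**
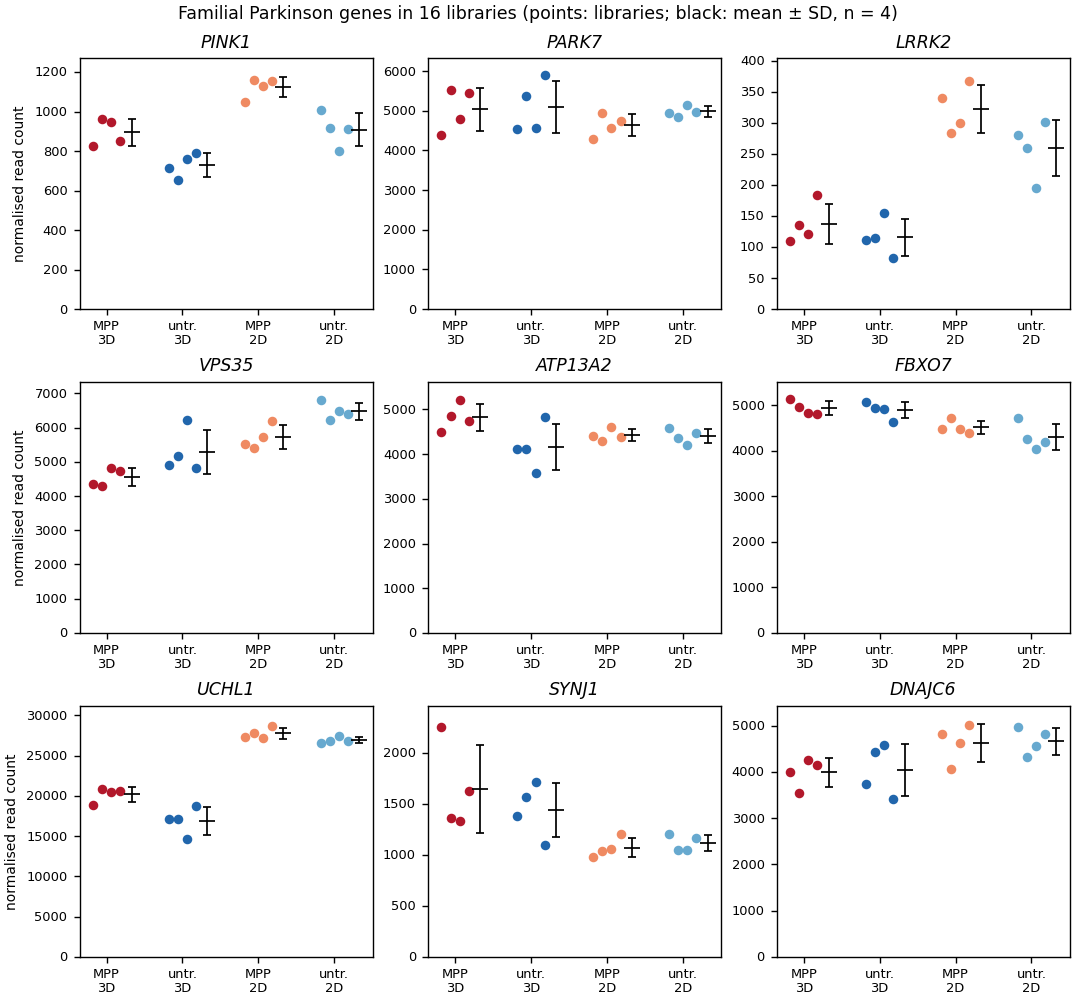
Normalised read count (vertical axes, each from 0) of the 9 genes in MPP 3D, untreated 3D, MPP 2D and untreated 2D; colored points are libraries in replicate order and black marks are mean ± SD, n = 4. LRRK2 and UCHL1 lie lower in both 3D groups than in both 2D groups, and PINK1 lies higher with MPP than without it in each culture.

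The largest log2 changes of the set lay between scaffold and dish, in LRRK2 and UCHL1 under both treatments and in SYNJ1 with MPP. In untreated 3D against untreated 2D, 4 of the 9 genes fell (PINK1, LRRK2, VPS35 and UCHL1), FBXO7 and SYNJ1 rose, and 3 did not pass the test. These 6 calls among 9 stand beside a background of 46.1% of all tested genes, with 23.2% called higher and 23.0% called lower. With MPP in both cultures, 4 genes fell in 3D (PINK1, LRRK2, VPS35 and UCHL1) and SYNJ1 rose, 5 of 9 beside a background of 38.9%, of which 19.0% of all tested genes were higher and 19.9% lower. The median log2 change of the 9 was -0.21 in both of these comparisons, while that of all tested genes was 0.01 in both. The toxin gave fewer calls: 1 of 9 in 2D beside a background of 34.5% (17.7% higher, 16.9% lower), and 4 of 9 in 3D beside 34.6% (17.0% higher, 17.6% lower). Nothing particular to the set is read from these counts, and the genes are described one by one.

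**Figure D2:**
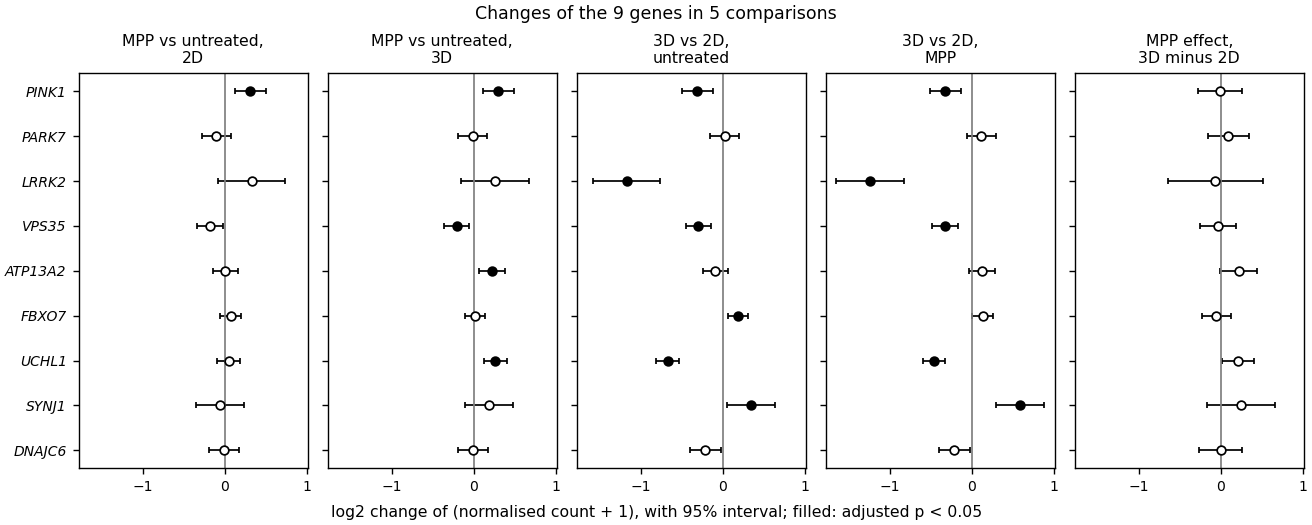
Log2 change of (normalised count + 1) with its 95% interval (horizontal axes) for the 9 genes (rows) in 5 comparisons from limma, from left to right the MPP effect in 2D, the MPP effect in 3D, the culture effect without MPP, the culture effect with MPP, and the MPP effect in 3D minus that in 2D. Filled points passed an adjusted p under 0.05; LRRK2 reaches -1.24 and SYNJ1 0.59 in 3D against 2D with MPP, and no point is filled in the last panel.

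LRRK2 (Entrez gene 120892, chromosome 12) had the largest fold change of the set. Its normalised counts were 110.2, 136, 120.4 and 183 in MPP 3D and 112, 114, 154 and 82.0 in untreated 3D. In 2D they were 340.0, 283, 299.5 and 367 with MPP and 281, 259, 196 and 301 without. Every 3D library lay below every 2D library, whatever the treatment. The mean was 116 ± 29.7 in untreated 3D against 259 ± 45.6 in untreated 2D, a log2 change of -1.17 (SE 0.20, adjusted p = 4.52e-05). With MPP it was 137 ± 32.3 in 3D against 322 ± 38.2 in 2D, a log2 change of -1.24 (adjusted p = 3.16e-05). MPP itself gave log2 changes of 0.26 in 3D (adjusted p = 0.340, 95% interval -0.16 to 0.67) and 0.33 in 2D (adjusted p = 0.216, interval -0.09 to 0.74), with libraries of the groups overlapping in both cultures. Its relative LRRK1, a kinase of the same ROCO family, also fell in the scaffold. LRRK1 averaged 212 ± 57.2 in untreated 3D and 419.6 ± 39.2 in untreated 2D (log2 -1.02, adjusted p = 8.34e-05), and 251 ± 27.4 in MPP 3D and 438 ± 92.1 in MPP 2D (log2 -0.78, adjusted p = 0.00162).

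The genes around LRRK2 did not move one way. Of 17 genes for its Rab substrates and its effectors, 5 were higher and 6 lower in untreated 3D than in untreated 2D. The shares over all tested genes were 23.2% higher and 23.0% lower. RAB29, a Rab of the Golgi that can recruit LRRK2, fell to 1153 ± 111 in untreated 3D, against 2053 ± 43.1 in untreated 2D (log2 -0.84, adjusted p = 7.90e-09). RAB3A, a vesicle Rab that LRRK2 phosphorylates, rose to 6056 ± 44.2 in untreated 3D, against 3935 ± 260.0 in untreated 2D (log2 0.62, adjusted p = 3.37e-08). RAB3A fell with MPP in both cultures, by 0.91 on the log2 scale in 3D (adjusted p = 1.57e-10) and by 0.49 in 2D (adjusted p = 2.66e-06). RILPL1, which binds phosphorylated Rabs, rose with MPP by log2 0.44 in each culture (adjusted p = 1.13e-04 in 3D and 1.24e-04 in 2D). Counts over the 17 were 4 higher and 3 lower with MPP in 3D, and 2 higher and 3 lower in 2D. Over all tested genes, MPP gave 17.0% higher and 17.6% lower in 3D, and 17.7% higher and 16.9% lower in 2D.

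UCHL1 (Entrez gene 7345, chromosome 4) was the most abundant of the 9 and, by p, the clearest difference between scaffold and dish. It had 18857, 20792, 20471 and 20584 normalised counts in MPP 3D and 17143, 17108, 14586 and 18795 in untreated 3D. In 2D it had 27354, 27749, 27236 and 28713 with MPP and 26567, 26747, 27442 and 26782 without. The 3D libraries all lay below the 2D ones, and within 3D every MPP library lay above every untreated one. UCHL1 averaged 16908 ± 1737 in untreated 3D against 26885 ± 383 in untreated 2D (log2 -0.67, SE 0.067, adjusted p = 2.92e-08). With MPP the gap was 20176 ± 889 in 3D against 27763 ± 670.4 in 2D (log2 -0.46, adjusted p = 9.56e-06). MPP raised UCHL1 in 3D by log2 0.26 (SE 0.067, adjusted p = 0.00418), a call that held in 27 of 28 alternatives. It was lost without untreated 3D replicates 1 and 3 (log2 0.17, adjusted p = 0.0602), an alternative chosen after seeing the data. In 2D the change with MPP was log2 0.05 (adjusted p = 0.627, 95% interval -0.09 to 0.18). The difference of these MPP effects, 3D minus 2D, was 0.21 (adjusted p = 0.138, interval 0.02 to 0.41) and did not pass.

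Summed markers of neurons were also lower in the scaffold, while those of MPP and untreated libraries overlapped within each culture. The summed normalised counts of 10 general neuron markers were 79849 to 95745 in MPP 3D, 84070.3 to 90488 in untreated 3D, 148865 to 171924 in MPP 2D and 140525 to 157353 in untreated 2D. All 10 were in the table, and their part in the UCHL1 result was not tested. In such bulk RNA, fewer cells of a type and less RNA per cell cannot be told apart. UCHL3 and UCHL5 belong to the same family of deubiquitinases. UCHL3 averaged 212 ± 16.8 in untreated 3D and 219 ± 27.3 in untreated 2D, with no call in any comparison. UCHL5, a proteasome-bound deubiquitinase, averaged 2449 ± 197 in untreated 3D and 2469.8 ± 203 in untreated 2D, and fell with MPP in 2D (log2 -0.33, adjusted p = 0.00184) with log2 0.01 in 3D (adjusted p = 0.932). That difference between cultures was itself called, at log2 0.34 (adjusted p = 0.0348).

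The start-site windows of LRRK2 and UCHL1 are shown because these were the 2 genes with the largest falls in the scaffold. Each covers 250 bases before to 50 bases after the annotated start in RefSeq on GRCh38.p14 (chr12:40224747-40225046 and chr4:41256678-41256977, both on the plus strand), written 5′ to 3′ with CpG dinucleotides in capitals.
LRRK2: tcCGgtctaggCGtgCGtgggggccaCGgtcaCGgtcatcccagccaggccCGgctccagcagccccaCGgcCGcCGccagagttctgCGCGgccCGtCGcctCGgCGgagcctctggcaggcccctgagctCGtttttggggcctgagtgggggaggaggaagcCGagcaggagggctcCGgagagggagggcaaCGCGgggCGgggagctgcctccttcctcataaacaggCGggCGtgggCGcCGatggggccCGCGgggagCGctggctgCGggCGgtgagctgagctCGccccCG
UCHL1: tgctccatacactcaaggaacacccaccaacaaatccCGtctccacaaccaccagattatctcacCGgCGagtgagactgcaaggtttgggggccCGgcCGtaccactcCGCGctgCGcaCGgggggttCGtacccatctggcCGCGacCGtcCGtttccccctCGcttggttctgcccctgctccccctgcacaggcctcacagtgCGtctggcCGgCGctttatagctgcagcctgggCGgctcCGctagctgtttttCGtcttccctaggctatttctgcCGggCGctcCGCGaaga
The LRRK2 window holds 32 CpG dinucleotides and is 74.7% G or C, and the UCHL1 window holds 25 and is 63.0% G or C. The median of 35116 such windows is 14 CpG dinucleotides and 58.7% G or C. Windows were found for 8 of the 9 genes, all but PINK1. They ranged from 8 CpG dinucleotides in DNAJC6 to 35 in ATP13A2. Searched on both strands, ACGTG, 1 form of the core of the hypoxia response element, occurred in PARK7 and ATP13A2, and in 21.4% of all windows. Other forms of this core were not searched. The NRF1 site occurred in FBXO7 and in 5.78% of all windows. CACGTG (the E-box, which contains ACGTG), TGACGTCA (the cyclic AMP response element) and TGATGCAA (the ATF4 element) occurred in none of the 8 windows, and in 7.26%, 1.85% and 0.866% of all windows. These matches describe the letters of the windows only.

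PINK1 (Entrez gene 65018, chromosome 1) was the only gene of the set called higher with MPP in both cultures. It was also lower in the scaffold under both treatments. Normalised counts were 826, 961, 947 and 849 in MPP 3D and 716, 652, 761 and 792 in untreated 3D. They were 1049.8, 1159, 1127 and 1154 in MPP 2D and 1006, 916, 799 and 912 in untreated 2D. All MPP libraries lay above all untreated ones within each culture, and all 3D libraries lay below all 2D ones within each treatment. In 3D it averaged 896 ± 68.4 with MPP against 730.0 ± 60.9 without, a log2 change of 0.30 (SE 0.092, adjusted p = 0.0154). In 2D it averaged 1122 ± 50.3 with MPP against 908 ± 84.4 without, a log2 change of 0.31 (adjusted p = 0.0122). The difference of the MPP effects was -0.01 (adjusted p = 0.964, 95% interval -0.28 to 0.26). Between cultures the log2 change was -0.31 untreated (adjusted p = 0.00773) and -0.33 with MPP (adjusted p = 0.00721). The MPP calls were near the threshold: in 2D the call was lost without untreated 2D replicate 3 (log2 0.25, adjusted p = 0.0560), and in 3D without untreated 3D replicate 2 (log2 0.24, adjusted p = 0.0604), without MPP 3D replicate 2 (log2 0.26, adjusted p = 0.0515) and when only the 2 groups were fitted (log2 0.30, adjusted p = 0.0582).

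PINK1 shares exon sequence with a gene on the other strand. PINK1-AS, chosen here for this overlap and after its values were seen, covers 1907 bases or 39.4% of the merged exons of PINK1 in GENCODE v29 on GRCh38. No strand setting of the libraries or the counting is given in the sources used here, so reads of the shared stretch cannot be told apart. PINK1-AS had 152, 187, 181 and 206 normalised counts in MPP 3D and 279.8, 328, 399 and 480.3 in untreated 3D. It had 159, 127, 141 and 169 in MPP 2D and 305, 319.7, 231 and 249.8 in untreated 2D. Every MPP library lay below every untreated library, while PINK1 was higher in every MPP library than in every untreated one within each culture. PINK1-AS fell with MPP by 1.01 on the log2 scale in 3D (SE 0.17, adjusted p = 9.14e-05) and by 0.88 in 2D (adjusted p = 3.90e-04). It averaged 372 ± 87.4 in untreated 3D and 276 ± 42.7 in untreated 2D (log2 0.41, adjusted p = 0.0566). For UCHL1, the antisense gene UCHL1-AS1, named for the same reason, covers 5.92% of the exons and averaged 18.1 to 40.1 over the groups, with no call.

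**Figure D3:**
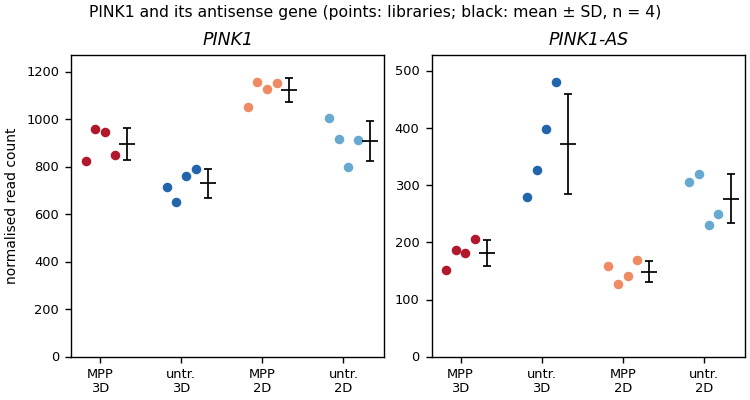
Normalised read count (vertical axes, each from 0) of PINK1 and of PINK1-AS, the gene on the opposite strand, in MPP 3D, untreated 3D, MPP 2D and untreated 2D; colored points are libraries in replicate order and black marks are mean ± SD, n = 4. With MPP, PINK1 is higher (896 against 730.0 in 3D) and PINK1-AS is lower (182 against 372 in 3D).

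PARK7 (Entrez gene 11315, chromosome 1) passed the test in no comparison. It had 4393, 5517, 4789 and 5457 normalised counts in MPP 3D and 4536, 5381, 4575 and 5890.0 in untreated 3D. In 2D it had 4296, 4953, 4574 and 4748 with MPP and 4955, 4842, 5156 and 4977 without. The groups overlapped in all 4 pairs, and the libraries spread more in 3D than in untreated 2D. Log2 changes were -0.01 with MPP in 3D (adjusted p = 0.919, 95% interval -0.19 to 0.16) and -0.10 in 2D (adjusted p = 0.371, interval -0.28 to 0.07). Between cultures they were 0.02 untreated (adjusted p = 0.842, interval -0.15 to 0.20) and 0.11 with MPP (adjusted p = 0.312, interval -0.06 to 0.29).

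FBXO7 (Entrez gene 25793, chromosome 22) was slightly higher in the scaffold. It had 5147, 4974, 4827 and 4812 normalised counts in MPP 3D and 5066, 4934, 4915 and 4645 in untreated 3D. In 2D it had 4471, 4714, 4479 and 4398 with MPP and 4719, 4257, 4045 and 4194 without. One untreated 2D library overlapped with untreated 3D, while with MPP all 3D libraries lay above all 2D ones. It averaged 4889.8 ± 177 in untreated 3D against 4304 ± 291 in untreated 2D (log2 0.19, SE 0.061, adjusted p = 0.0157). With MPP the log2 change was 0.13 (adjusted p = 0.0969), and MPP gave 0.01 in 3D (adjusted p = 0.875) and 0.07 in 2D (adjusted p = 0.389). The untreated call was lost without untreated 2D replicate 3 (log2 0.16, adjusted p = 0.0621), without untreated 3D replicates 1 and 3 (log2 0.16, adjusted p = 0.102) and with totals made equal over nuclear genes (log2 0.10, adjusted p = 0.194). FBXO9, another F-box gene, fell with MPP by 0.57 on the log2 scale in 3D (adjusted p = 1.80e-05) and by 0.73 in 2D (adjusted p = 9.72e-07).

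Of 32 mitophagy genes, 13 were higher and 3 lower in untreated 3D than in untreated 2D, where 23.2% of all tested genes were higher and 23.0% lower. With MPP in both cultures 8 were higher and 3 lower, against 19.0% and 19.9% of all genes. The median log2 change of the list was 0.16 untreated and 0.12 with MPP, beside 0.01 over all genes in both, and the difference from all genes was not tested. BNIP3, a mitophagy receptor of the outer membrane, averaged 8602 ± 739 in untreated 3D and 3397 ± 214 in untreated 2D (log2 1.34, adjusted p = 8.08e-13). CALCOCO2, a cargo receptor, averaged 1207 ± 149.9 in untreated 3D and 2100.1 ± 97.8 in untreated 2D (log2 -0.81, adjusted p = 8.15e-08). MPP gave 3 higher and 6 lower genes in each culture. Over all genes MPP gave 17.0% higher and 17.6% lower in 3D, and 17.7% and 16.9% in 2D. In 3D it lowered BNIP3 to 3303 ± 176, against 8602 ± 739 untreated (log2 -1.38, adjusted p = 1.07e-12), and BNIP3L, its close relative, by 0.54 on the log2 scale (adjusted p = 6.17e-07). In 2D the cargo receptors OPTN (log2 0.67, adjusted p = 4.36e-07) and SQSTM1 (log2 0.50, adjusted p = 9.31e-07) rose.

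Of 19 thiol and glyoxal defence genes, the setting of PARK7, 1 was higher and 5 lower in untreated 3D than in untreated 2D. In that comparison 23.2% of all tested genes were higher and 23.0% lower. The peroxiredoxin PRDX2 fell by 0.65 on the log2 scale there (adjusted p = 1.24e-06) and CAT, the catalase gene, by 0.61 (adjusted p = 9.05e-05). MPP gave 3 higher and 6 lower in 3D and 1 higher and 5 lower in 2D. Among all tested genes these shares were 17.0% and 17.6% in 3D, and 17.7% and 16.9% in 2D. NQO1, a quinone reductase, averaged 284 ± 57.1 in MPP 3D against 130.0 ± 26.3 in untreated 3D (log2 1.12, adjusted p = 2.57e-04). In 2D it averaged 353 ± 12 with MPP against 154 ± 52.5 without (log2 1.26, adjusted p = 7.76e-05). The peroxiredoxins PRDX1 in 3D (log2 -0.46, adjusted p = 5.88e-05) and PRDX2 in 2D (log2 -0.35, adjusted p = 0.00228) fell with MPP.

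Of 13 SCF core and deubiquitinase genes, 2 were higher and 2 lower in untreated 3D than in untreated 2D, where 46.1% of all tested genes were called. MPP gave 2 lower ones in 3D, where 34.6% of all genes were called, and 1 higher and 4 lower ones in 2D, where 34.5% were. The median log2 change of the list was -0.01 between the untreated cultures, -0.08 with MPP in 3D and -0.06 with MPP in 2D. The ubiquitin gene UBB fell with MPP by 0.50 on the log2 scale in 3D (adjusted p = 1.37e-04) and by 0.38 in 2D (adjusted p = 0.00175). SKP1, the SCF subunit that F-box proteins such as FBXO7 bind, fell with MPP in 3D (log2 -0.30, adjusted p = 0.00643).

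VPS35 (Entrez gene 55737, chromosome 16) was lower in the scaffold under both treatments and fell with MPP in 3D. Normalised counts were 4345, 4295, 4817 and 4721 in MPP 3D and 4897, 5173, 6231 and 4828 in untreated 3D. They were 5528, 5414, 5730.3 and 6203 in MPP 2D and 6792, 6212, 6482 and 6389 in untreated 2D. Within each culture all MPP libraries lay below all untreated ones, but only narrowly. Untreated 3D replicate 3 stood above the rest of its group and overlapped with untreated 2D. VPS35 averaged 5282 ± 649.8 in untreated 3D against 6469 ± 243 in untreated 2D (log2 -0.30, SE 0.075, adjusted p = 0.00251). With MPP it averaged 4545 ± 263 in 3D against 5719 ± 348 in 2D (log2 -0.33, adjusted p = 0.00135), with no overlap. The change with MPP was -0.21 in 3D (adjusted p = 0.0335) and -0.18 in 2D (adjusted p = 0.0702, not called). Their difference was -0.03 (adjusted p = 0.886, 95% interval -0.25 to 0.19). The 3D call was lost without untreated 3D replicate 3 (log2 -0.13, adjusted p = 0.141), with equal library totals (log2 -0.12, adjusted p = 0.242) and in 6 other alternatives, and the 2D change was called in 5 alternatives.

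Of 21 other retromer and WASH complex genes, 11 were lower and 3 higher in untreated 3D than in untreated 2D, where 23.0% of all tested genes were lower and 23.2% higher. In MPP 3D against MPP 2D, 5 were lower and 2 higher, against 19.9% and 19.0% of all genes. The median log2 change of the list was -0.20 untreated and -0.06 with MPP, beside 0.01 over all genes in both, and the difference from all genes was not tested. WASHC2C, a WASH subunit that the retromer recruits, averaged 1165 ± 32.9 in untreated 3D and 1855 ± 85.2 in untreated 2D (log2 -0.67, adjusted p = 5.89e-07). VPS26B, a retromer subunit that binds VPS35, went the other way, at 3894 ± 152 in untreated 3D and 2658 ± 128 in untreated 2D (log2 0.55, adjusted p = 2.66e-07). MPP gave 3 higher and 6 lower in 3D, where VPS26B fell by 0.59 on the log2 scale (adjusted p = 1.93e-07) and TBC1D5, a retromer-bound Rab7 GAP, rose (log2 0.43, adjusted p = 2.45e-04). In 2D it gave 2 higher and 7 lower, among them the retromer subunit VPS29 (log2 -0.51, adjusted p = 2.18e-04) and the adaptor SNX27 (log2 -0.45, adjusted p = 7.40e-05). Among all genes MPP gave 17.0% higher and 17.6% lower in 3D, and 17.7% and 16.9% in 2D. VPS35L, a VPS35-like protein of the separate retriever complex, rose with MPP in 2D (log2 0.36, adjusted p = 0.00172), with log2 0.19 in 3D (adjusted p = 0.0878).

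ATP13A2 (Entrez gene 23400, chromosome 1) differed little between cultures and passed once, with MPP in 3D. It had 4497, 4855, 5214 and 4738 normalised counts in MPP 3D and 4108, 4114, 3569 and 4840.0 in untreated 3D. In 2D it had 4416, 4304, 4602 and 4374 with MPP and 4581, 4371, 4209 and 4475 without. In 3D the libraries overlapped, as untreated replicate 4 lay above 2 of the MPP libraries. ATP13A2 averaged 4826 ± 299 in MPP 3D against 4158 ± 522 in untreated 3D (log2 0.22, SE 0.075, adjusted p = 0.0261). This call was lost in 6 alternatives, with the smallest value, 0.11 (adjusted p = 0.317), without untreated 3D replicates 1 and 3. In 2D the change with MPP was 0.01 (adjusted p = 0.967), and the difference of the MPP effects was 0.22 (adjusted p = 0.189, 95% interval -0.01 to 0.44). Between cultures the log2 changes were -0.09 untreated (adjusted p = 0.334) and 0.12 with MPP (adjusted p = 0.207).

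Some relatives and pathway partners of ATP13A2 had larger log2 changes. ATP13A1, an ATPase of the endoplasmic reticulum, averaged 8632 ± 695 in untreated 3D and 5251 ± 66.7 in untreated 2D (log2 0.71, adjusted p = 9.63e-09), and with MPP the change was 0.68 (adjusted p = 2.83e-08). ATP13A3, a polyamine transporter, averaged 3896 ± 559 in MPP 3D and 2799 ± 122 in MPP 2D (log2 0.47, adjusted p = 8.71e-04), and fell with MPP in 2D (log2 -0.30, adjusted p = 0.0234). ATP13A4 averaged 13.2 to 47.7 and ATP13A5 4.34 to 17.1 over the groups. Of 21 tested lysosomal ATPase and polyamine genes, 8 were higher and 5 lower in untreated 3D than in untreated 2D. Of all tested genes, 23.2% were higher and 23.0% lower. AZIN1, which stimulates polyamine synthesis and uptake, fell in untreated 3D by 0.89 on the log2 scale (adjusted p = 1.39e-09). SAT1, the enzyme that acetylates polyamines for their breakdown or export, averaged 315 ± 51.6 in MPP 3D against 151 ± 9.67 in untreated 3D (log2 1.05, adjusted p = 4.06e-06). In 2D it averaged 517 ± 33.3 with MPP against 245 ± 27.9 without (log2 1.08, adjusted p = 3.14e-06). The spermine synthase gene SMS fell with MPP in 3D (log2 -0.61, adjusted p = 1.46e-07), and MCOLN1, a lysosomal cation channel, in 2D (log2 -0.64, adjusted p = 2.55e-05). The MPP counts over the list were 4 higher and 5 lower in 3D and 4 higher and 4 lower in 2D. All tested genes had 17.0% higher and 17.6% lower with MPP in 3D, and 17.7% and 16.9% in 2D.

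SYNJ1 (Entrez gene 8867, chromosome 21) was the gene of the set with the largest rise in the scaffold. It had 2259, 1365, 1329 and 1624 normalised counts in MPP 3D and 1378, 1566, 1711 and 1096 in untreated 3D. In 2D it had 981, 1039, 1055 and 1204 with MPP and 1207, 1048, 1052 and 1166 without. With MPP every 3D library lay above every 2D one, while untreated 3D replicate 4 fell among the untreated 2D libraries. SYNJ1 averaged 1644 ± 431 in MPP 3D against 1069.7 ± 94.8 in MPP 2D (log2 0.59, SE 0.14, adjusted p = 0.00202). Untreated, it averaged 1438 ± 265 in 3D against 1118 ± 81.0 in 2D (log2 0.35, adjusted p = 0.0490), a call that was lost in 17 of 28 alternatives. MPP gave log2 changes of 0.18 in 3D (adjusted p = 0.346, 95% interval -0.11 to 0.47) and -0.07 in 2D (adjusted p = 0.757, interval -0.36 to 0.23). The 3D value was 0.015 without MPP 3D replicate 1 and 0.055 without untreated 3D replicate 4, and at most 0.27 when any 1 library was left out. SYNJ2, its close relative, rose in all 4 pairs, by log2 0.41 with MPP in 3D (adjusted p = 0.00936), 0.34 with MPP in 2D (adjusted p = 0.0288), 0.35 in untreated 3D against untreated 2D (adjusted p = 0.0177) and 0.42 in MPP 3D against MPP 2D (adjusted p = 0.00676).

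DNAJC6 (Entrez gene 9829, chromosome 1), the other uncoating gene of the set, was called in no comparison. It had 3999, 3551, 4258 and 4141 normalised counts in MPP 3D and 3734, 4428, 4586 and 3422 in untreated 3D. In 2D it had 4813, 4068, 4627 and 5018 with MPP and 4969, 4311, 4552 and 4825 without. Averages were lower in 3D, at 3987 ± 309 with MPP and 4042 ± 555 untreated, against 4631 ± 408 with MPP and 4664 ± 292 untreated in 2D, but the libraries overlapped in every pair. The log2 change was -0.21 both untreated (adjusted p = 0.0553) and with MPP (adjusted p = 0.0630), just outside the threshold, and it was called in 6 and 5 alternatives. MPP gave -0.01 in each culture (adjusted p = 0.930 in 3D and 0.932 in 2D, both intervals -0.20 to 0.17). GAK, the cyclin G-associated kinase and a relative of auxilin, rose with MPP by log2 0.25 in 3D (adjusted p = 0.0102) and 0.19 in 2D (adjusted p = 0.0477) and was not called between cultures.

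Of 26 tested clathrin coat and uncoating genes, SYNJ1 and DNAJC6 left out, 11 were lower and 3 higher in untreated 3D than in untreated 2D, against 23.0% and 23.2% of all genes. With MPP in both cultures 10 were lower and 2 higher, against 19.9% and 19.0% of all genes. The median log2 change of the list was -0.20 untreated and -0.16 with MPP, beside 0.01 over all genes in both, and the difference from all genes was not tested. DNM3, a dynamin, averaged 402 ± 45.9 in untreated 3D and 1754 ± 188 in untreated 2D (log2 -2.12, adjusted p = 4.86e-12). SNAP91, the neuronal clathrin adaptor AP180, averaged 2517 ± 153 in untreated 3D and 3969.8 ± 210.5 in untreated 2D (log2 -0.66, adjusted p = 8.15e-08). MPP gave 7 higher and 6 lower in 3D and 5 higher and 5 lower in 2D. Of all genes, 17.0% were higher and 17.6% lower with MPP in 3D, and 17.7% and 16.9% in 2D. BIN1 (amphiphysin 2) rose by log2 0.61 in 3D (adjusted p = 2.97e-05) and 0.50 in 2D (adjusted p = 3.17e-04). HSPA8, the chaperone that auxilin brings to the coat, fell by 0.37 on the log2 scale in 3D (adjusted p = 8.17e-04) and by 0.40 in 2D (adjusted p = 3.76e-04).

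**Figure D4:**
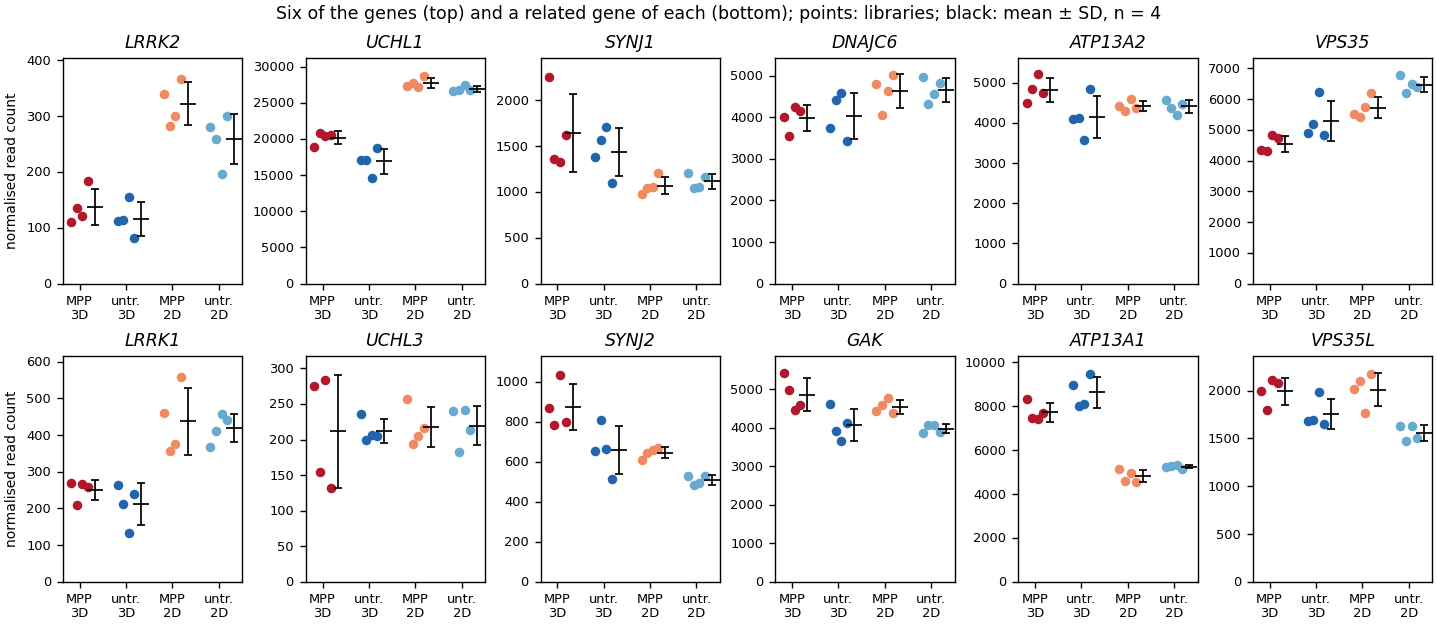
Normalised read count (vertical axes, each from 0) of LRRK2, UCHL1, SYNJ1, DNAJC6, ATP13A2 and VPS35 (top) and of a related gene of each (bottom: LRRK1, UCHL3, SYNJ2, GAK, ATP13A1 and VPS35L) in MPP 3D, untreated 3D, MPP 2D and untreated 2D; colored points are libraries and black marks are mean ± SD, n = 4. LRRK1 is lower in 3D as LRRK2 is, and ATP13A1 is higher in 3D (8632 against 5251 untreated) where ATP13A2 has similar values.

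Overlap between the libraries of 2 groups was counted as well. With MPP the libraries of the 2 groups did not overlap for 2 of the 9 genes in 2D (PINK1 and VPS35), beside 38.8% of all tested genes, and for 3 in 3D (PINK1, VPS35 and UCHL1), beside 27.6%. Between 3D and 2D they did not overlap for 3 genes untreated (PINK1, LRRK2 and UCHL1), beside 39.7%, and for 6 with MPP (those 3 and VPS35, SYNJ1 and FBXO7), beside 37.5%. The difference of the MPP effects was called by limma for 0 of the 9 genes, beside a background of 15.3% (7.00% higher, 8.32% lower). At an unadjusted p under 0.05 it was 1 gene, UCHL1, and edgeR and DESeq2 called 0.

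Within groups, some libraries moved several of the genes at once. Untreated 3D replicate 3 lay above its group mean for LRRK2 by 0.45 on the log2 scale, for SYNJ1 by 0.27, for VPS35 by 0.25 and for DNAJC6 by 0.19. The same library lay below its group mean for ATP13A2 (-0.21), UCHL1 (-0.21) and PARK7 (-0.15). Untreated 3D replicate 4 deviated the other way for all of these, with -0.45 for LRRK2, -0.37 for SYNJ1, -0.23 for DNAJC6, -0.12 for VPS35, 0.23 for ATP13A2, 0.22 for PARK7 and 0.16 for UCHL1. Over the 16 deviations, the highest within-group correlations between 2 of the genes were 0.80 for ATP13A2 with UCHL1 and 0.80 for VPS35 with DNAJC6, and the lowest was -0.70 for ATP13A2 with SYNJ1. These values describe the libraries and are no test. Whether depth or handling had a part in them was not tested.

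**Figure D5:**
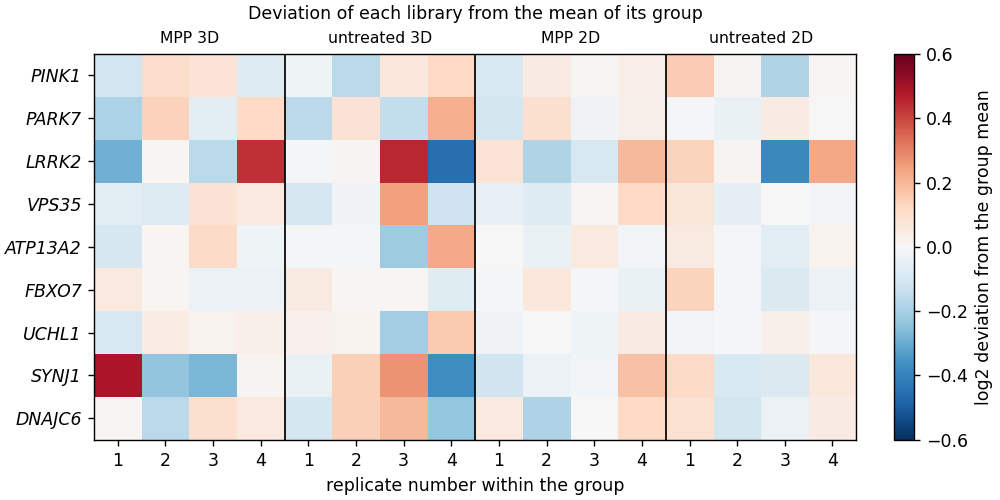
Log2 deviation of each library from the mean of its group (color) for the 9 genes (rows) in the 16 libraries (columns: replicates 1 to 4 of MPP 3D, untreated 3D, MPP 2D and untreated 2D). Untreated 3D replicates 3 and 4 deviate in opposite directions for LRRK2 (0.45 and -0.45) and ATP13A2 (-0.21 and 0.23).

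The genes whose pattern was most like that of each of the 9 were sought among 14030 genes by Pearson correlation over the 16 libraries, given as a description since the libraries fall into the 4 groups. UCHL1 was most like DCLK2 (0.99) and NCS1 (0.98), VPS35 like DCAF6 and NCOA4 (0.97 each), and LRRK2 like ABCD2 and CHL1 (0.96 each). For PINK1 these were MMP24 (0.95) and VAT1 (0.94), for SYNJ1 HOOK1 and ELOA (0.94 each), and for DNAJC6 ATL3 (0.94) and DPP8 (0.93). FBXO7 was most like RCL1 (0.93) and TM9SF4 (0.91), PARK7 like EIF6 (0.91) and POLR2G (0.84), and ATP13A2 like YDJC (0.89) and ABHD12 (0.88). Taken within groups, the 18 correlations were 0.57 to 0.92.

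Of 17 other genes of familial or genetic parkinsonism that were tested, 3 were higher and 4 lower in untreated 3D than in untreated 2D. The shares of all tested genes were 23.2% higher and 23.0% lower. VPS13C, a lipid transfer protein at membrane contacts, averaged 6933 ± 996 in untreated 3D and 3743 ± 268 in untreated 2D (log2 0.88, adjusted p = 4.54e-07), and fell with MPP in 3D (log2 -0.72, adjusted p = 1.44e-05). GCH1, the first enzyme of tetrahydrobiopterin synthesis, averaged 2878 ± 204 in untreated 3D and 4495 ± 255 in untreated 2D (log2 -0.64, adjusted p = 4.53e-07), and rose with MPP in 2D (log2 0.43, adjusted p = 1.49e-04). MPP gave 3 higher and 4 lower in 3D, where the translation factor EIF4G1 fell (log2 -0.41, adjusted p = 2.70e-06). In 2D it gave 5 higher and 4 lower, and POLG, the mitochondrial DNA polymerase, rose (log2 0.48, adjusted p = 4.00e-05). Over all tested genes, MPP gave 17.0% higher and 17.6% lower in 3D, and 17.7% and 16.9% in 2D.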

How the data were processed

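Poly-A selected RNA was sequenced in 16 libraries, with groups and replicate numbers from the sample titles. The deposited values are normalised counts, a signal that is never negative: reads per gene divided by 1 size factor per library by the authors. Per the submitters' processing notes, the build was GRCh38.p13 and the tools were CASAVA 1.8.2, FastQC, STAR, featureCounts and DESeq2; no settings are given in the sources used here. Whole reads were recovered, 24589435 to 46359070 per library: 100.0% of the values came out whole within 0.01 reads. The table holds genes with 11 or more reads over all libraries, and 19827 of 19898 identifiers matched RefSeq. Replicate libraries differed by more than sampling noise in all 24 pairs, with a chi-square per degree of freedom of at least 6.58.

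Changes were tested with limma-trend (limma 3.58.1, R 4.3.3) on log2(value + 1). Genes had to reach a value of 10 in 4 or more libraries, which 16984 did. The 4 groups were fitted together over all 16 libraries, with Benjamini-Hochberg adjustment over all genes tested and 5 comparisons. The test was set for values that are not raw counts and was kept once whole reads were recovered. It understates the changes of low genes. It was tested on simulated data that gave every gene the same spread beyond counting noise. Genes of wider spread were therefore not covered. Alternatives on recovered reads were DESeq2 1.42.0 and edgeR 4.0.16 (quasi-likelihood test), and the others were 2 scalings, 2 pseudocounts, 2 filters, robust empirical Bayes, a replicate block, fits of only the groups compared and leaving out each library. On the recovered reads edgeR called 5876 genes for MPP in 2D, 5815 for MPP in 3D, 7722 for untreated 3D against 2D, 6677 for 3D against 2D with MPP and 2571 for the difference of the MPP effects, where limma called 5866, 5879, 7830, 6615 and 2602 in the same order.

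The 9 genes and the other lists were chosen with earlier results of these data known. All 9 are named in every comparison. From each pathway list the 2 called genes of smallest p and a mean of 50 or more are named for MPP in 2D, MPP in 3D and untreated 3D against 2D. Relatives of the 9, and for each the 2 genes of highest correlation with a mean of 50 or more, are named too, with unnamed loci passed over. A few genes under this rule are not reported here. Exon lengths and overlaps came from GENCODE v29.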

Additional observations from a re-analysis of the deposited data

Results flagged for a closer look

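UCHL1 in MPP 3D replicate 1 stood apart from its group, at 18857 normalised counts against 20471 to 20792 in the other 3 libraries, by Dixon's test of the gap to the nearest value. It was the 1 such case among 36 groups of values tested, and chance flags about 1 in 20. This library still lay above every untreated 3D library.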

How the results depend on the processing

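Counts of called genes over all tested genes stayed within 1.5 times in every alternative. For the 9 genes, the 2D count with MPP of 1 became 2 with equal library totals, with equal nuclear totals, with only the groups compared and without untreated 3D replicates 1 and 3, an alternative chosen after seeing the data, and was 0 to 2 when leaving out 1 library. The 3D count with MPP of 4 became 1 with only the groups compared and 1 without untreated 3D replicates 1 and 3, and was 1 to 4 when leaving out 1 library. The difference of the MPP effects, with 0 calls, had 2 with equal nuclear totals (UCHL1 0.32, adjusted p = 0.0209; ATP13A2 0.32, adjusted p = 0.0409), and 0 to 2 when leaving out 1 library. Untreated 3D against 2D gave 4 to 7 calls and the comparison with MPP 5 to 6 when leaving out 1 library; edgeR and DESeq2 gave 6 and 5. The calls of LRRK2, UCHL1, PINK1 and VPS35 in 3D against 2D, and of SYNJ1 with MPP, held in all 28 alternatives. Over all log2 changes of the 9 genes, 39 values under an alternative were no longer called, 21 became called and 58 changed sign, none of which was called before; the cause was not tested.

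With equal library totals, the log2 changes of opposite sign were, with MPP in 2D PARK7 (0.00090), SYNJ1 (0.039) and DNAJC6 (0.092), with MPP in 3D PARK7 (0.082) and DNAJC6 (0.082). With equal nuclear totals, the log2 changes of opposite sign were, with MPP in 2D ATP13A2 (-0.040), with MPP in 3D PARK7 (0.045) and DNAJC6 (0.046), in untreated 3D against 2D PARK7 (-0.065), for the difference of the MPP effects PINK1 (0.091), LRRK2 (0.033), VPS35 (0.072), FBXO7 (0.048) and DNAJC6 (0.10). With edgeR, the log2 change of opposite sign was, with MPP in 2D ATP13A2 (-0.00017). Without untreated 3D replicates 1 and 3, the log2 changes of opposite sign were, with MPP in 3D DNAJC6 (0.031), in untreated 3D against 2D ATP13A2 (0.018), for the difference of the MPP effects PINK1 (0.0064), PARK7 (-0.063), LRRK2 (0.15), VPS35 (0.040) and DNAJC6 (0.044). When leaving out 1 library, the ranges that crossed 0 were, with MPP in 2D ATP13A2 -0.017 to 0.024 and DNAJC6 -0.052 to 0.049, with MPP in 3D PARK7 -0.067 to 0.059, FBXO7 -0.0096 to 0.032 and DNAJC6 -0.089 to 0.051, in untreated 3D against 2D PARK7 -0.049 to 0.077, for the difference of the MPP effects PINK1 -0.066 to 0.047, LRRK2 -0.22 to 0.080, VPS35 -0.073 to 0.050 and DNAJC6 -0.077 to 0.064.

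Equal library totals moved the median log2 change of all genes with MPP in 2D to 0.12, against 0.02 in the main scaling. The share of calls that were higher became 70.3% with it against 51.1% for MPP in 2D, and 66.0% against 49.0% for MPP in 3D. With equal nuclear totals it was 42.4% for MPP in 2D, so that balance turns with the scaling, 59.3% for MPP in 3D, 38.3% against 50.2% for untreated 3D against 2D, and 66.9% against 45.7% for the difference. Same-numbered libraries of different groups correlated at -0.11 to 0.09, and 5 of 24 were most alike to their own number, so the numbers were not taken as pairs. With the replicate block, the call of SYNJ1 in untreated 3D against 2D was lost (adjusted p = 0.0618), leaving 5 calls there, and no other call of the 9 genes changed. Depth limits LRRK2 most, at 55 reads in its shallowest library; there are no molecular identifiers, so counting error is a lower limit.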
